A study of Homo sapiens with 12 samples.

Results

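The quantity described here is a difference of responses: how far each messenger RNA moved when Jurkat cells lacking the RNA-binding protein HuR were activated, minus how far it moved when wild-type cells were activated. It was computed for every gene of the authors' deposited table of comparisons, 2587 of 2587, with no gene left out. Genes were then sorted into responses that were lost, gained, reversed, weaker or stronger in the cells without HuR. Jurkat is an established human T-cell leukaemia line. All 12 libraries came from it, 3 in each of 4 groups: WT_rest and HuRKO_rest, which received no stimulus for 24 h, and WT_act and HuRKO_act, which were activated over the same 24 h with ionomycin at 500 ng/mL and PMA at 20 ng/mL. All 4 groups were grown in RPMI1640 medium with 10% serum, and poly(A) RNA was sequenced as directional libraries. The labels do not say whether the HuRKO cells are 1 clone, how the gene was disrupted, or whether the 3 libraries of a group came from separate cultures, so each call below rests on a spread among libraries that may be purely technical.

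PMA activates protein kinase C and ionomycin lets calcium into the cell. Together they switch on NFAT, NF-kB and AP-1, the transcription factors that drive interleukin, chemokine and surface receptor genes when a T cell is stimulated. HuR, encoded by ELAVL1, binds U-rich and AU-rich stretches of many mRNAs and is best known for protecting short-lived mRNAs from decay. The title of the series names activation and the 3′ UTRs (untranslated regions) of cytokines, so a response that changes without HuR is the comparison that the 4 groups were arranged to give.

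Some properties of the data bear on everything that follows. The table is a selection: every gene in it passed a false discovery rate (FDR) of 0.05 together with a change of over 4-fold up or down somewhere among the 4 deposited comparisons, and a gene outside it is not shown to be unchanged. No values per library were analysed here, the depth is unknown, and each group level was worked out from the deposited mean over all libraries and the 4 deposited changes, in normalised counts. They have no SD. Levels are comparable between groups for 1 gene, not between genes, because they are not divided by length. A level under 1 normalised count (3 counts over the 3 libraries of a group) was held at that floor, and a fold against it is given as at least that fold. The mean level over all libraries ran from 4.87 to 29176.3 with a median of 38.8. In bulk RNA, fewer cells carrying an mRNA and less of it in each cell cannot be told apart.

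The error of the difference had to be bounded. A p-value cannot exceed its FDR. The test behind the deposited FDR is not stated, so a normal approximation was assumed, and it was not tested. Under it, each deposited FDR and its change together give an upper limit on the standard error. The 2 limits combine into a limit on the error of the difference. Intervals called bounded below use that limit, and a difference is called where its p, multiplied by 60000, stayed below 0.05. Since the error is only bounded, intervals are printed and p-values are not, and every gene placed in a lost, gained, weaker or stronger class has a called difference. By this test 252 genes (9.74% of those listed) had a higher response in HuRKO cells and 270 (10.4%) a lower one. The test is strict for scarce mRNAs. Of 963 genes with a mean below 20 it called 5, against 517 of the other 1624. Of 1011 genes whose responses differed by 4-fold or more as point values, 345 were called. The median difference over the table was -0.07 on the log2 scale, with 1321 genes below 0 and 1266 above it. Named below are the 8 genes of each class with the largest differences on floor-held levels (pseudogenes, clone names, chromosome Y genes and RNAs without poly(A) tails left out) and the class members that belong to 25 gene lists. Genes named from no class were chosen after their values were seen.

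ELAVL1 itself was read first. Its level was 4042 normalised counts in resting and 2552 in activated WT cells, and 596 and 471 in HuRKO cells. It was low in both HuRKO groups, and the difference of its responses was only 0.32 (bounded 95% interval 0.05 to 0.60), not called. Of 17 listed genes of chromosome Y, 16 were lower in HuRKO cells at rest and 16 after activation, and 0 were in a response class (by an unadjusted bounded p below 0.05, 3 higher and 0 lower). Their part in the results was not tested. Of 8 defining T-cell markers, 2 are in the table, and the level of a marker outside it is not known here. The constant chain TRAC is described further on, and the adhesion receptor CD2 had levels of 1759.9 and 1307 in WT cells against 380.2 and 399.7 in HuRKO cells. Markers of other lineages were few: 1 of 5 for B cells, 2 of 5 for monocytes, 2 of 5 for erythroid cells, 1 of 5 for fibroblasts and 0 of 4 for epithelial cells. Their summed levels ran, in the order WT_rest, WT_act, HuRKO_rest and HuRKO_act, 1.41, 19.8, 10.1 and 17.2 for B cells, 1.10, 74.3, 10.0 and 106 for monocytes, 2.94, 4.46, 48.1 and 54.3 for erythroid cells and 29.3, 210.0, 79.8 and 144 for fibroblasts, and their part in the results was not tested.

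Because HuR is known for AU-rich sites, the 3′ UTRs of the listed genes (GENCODE 29, GRCh38) were searched on the sense strand for the 9-base core UUAUUUAUU. It was found in 177 of 1828 listed genes with a 3′ UTR (9.68%), in 13 of 94 weaker rises (13.83%), in 6 of 59 lost rises (10.17%), in 5 of 33 gained rises (15.15%) and in 7 of 19 listed T-cell cytokines (36.84%). Among the other classes it was in 3 of 22 WT rises that became HuRKO falls (13.64%), 4 of 46 WT falls that became HuRKO rises (8.7%), 1 of 21 weaker falls (4.76%), 1 of 24 stronger rises (4.17%), 0 of 21 lost falls (0.0%), 2 of 23 gained falls (8.7%) and 1 of 13 stronger falls (7.69%). The core thus occurred in classes of higher and of lower response, at shares above and below that of all listed genes, and none of these shares was tested. The U-rich run UUUUUUU ordered the sets otherwise. It was in 46.83% of all listed genes with a 3′ UTR, 36.17% of weaker rises, 54.24% of lost rises and 48.48% of gained rises. Its share was 15.79% of the T-cell cytokines and from 36.36% to 61.9% in the other classes, also not tested. A match is a stretch of letters, not a bound site. The windows below, 10 bases either side of the core in capitals, come first from mRNAs whose rise was lost or weaker without HuR, then from mRNAs whose rise was gained (CD28 and EOMES) or took the place of a WT fall (CCR4 and THEMIS), and then from 3 cytokine mRNAs that are listed but in no class. They were chosen among the matches after the values were seen, to show the core on either side.
PLK3, chr1:44805900-44805928, plus strand, 3′ UTR: uggaccacuuUUAUUUAUUgucagacacu
VEGFA, chr6:43786286-43786314, plus strand, 3′ UTR: uuguuaucauUUAUUUAUUggugcuacug
PARP9, chr3:122534879-122534907, minus strand, 3′ UTR: aguucucucuUUAUUUAUUuauuuauuuu
REL, chr2:60925006-60925034, plus strand, 3′ UTR: ugauauauaaUUAUUUAUUuugcccuuuu
CFLAR, chr2:201167059-201167087, plus strand, 3′ UTR: auuuuaugauUUAUUUAUUuuucuauuuc
CD28, chr2:203738786-203738814, plus strand, 3′ UTR: gacauuuuucUUAUUUAUUuguaguuuau
EOMES, chr3:27716789-27716817, minus strand, 3′ UTR: gguucuguauUUAUUUAUUggggagacac
CCR4, chr3:32955031-32955059, plus strand, 3′ UTR: cagaucucaaUUAUUUAUUguaaaggauu
THEMIS, chr6:127708610-127708638, minus strand, 3′ UTR: aguuuuucuuUUAUUUAUUuugccuguuu
IL3, chr5:132063030-132063058, plus strand, 3′ UTR: auguauguauUUAUUUAUUuauugccugg
CSF2, chr5:132076073-132076101, plus strand, 3′ UTR: uuuaaaauauUUAUUUAUUuauuuauuua
TNF, chr6:31577990-31578018, plus strand, 3′ UTR: gcacuugugaUUAUUUAUUauuuauuuau

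A second set of sequences belongs to the interferon-stimulated genes, the list with the most lower responses. Interferon acts on such genes through the interferon-stimulated response element, searched here as GAAANNGAAA on both strands from 250 bases before to 50 after the start site (RefSeq, GRCh38.p14). It was found in 3.65% of all 27305 promoters of the reference table, in 5.04% of the 1487 belonging to listed genes, and in 16 of 26 promoters of the interferon list. The kappaB motif GGANTTTCC was found in 4 of 10 promoters of the NF-kB list against 2.62% of listed genes. Of the windows below, with the element in capitals and in the reading direction of the gene, those of OAS3, IFIT1 and IFIT3 belong to genes whose responses differed between the genotypes, and those of TNFSF10, ISG20 and GBP3 to genes whose bounded interval of the difference lay within 2-fold. The element was thus present in promoters of both kinds of gene.
OAS3, chr12:112938321-112938350, plus strand, promoter: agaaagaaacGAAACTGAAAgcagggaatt
IFIT1, chr10:89392497-89392526, plus strand, promoter: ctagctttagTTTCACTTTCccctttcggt
IFIT3, chr10:89327831-89327860, plus strand, promoter: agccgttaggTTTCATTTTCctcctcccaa
TNFSF10, chr3:172523598-172523627, minus strand, promoter: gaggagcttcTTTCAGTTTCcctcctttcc
ISG20, chr15:88638937-88638966, plus strand, promoter: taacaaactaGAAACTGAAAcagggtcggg
GBP3, chr1:89022845-89022874, minus strand, promoter: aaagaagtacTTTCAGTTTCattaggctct

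A rise was counted as lost where WT cells rose 4-fold or more with FDR below 0.05 and the difference was called. HuRKO cells had to rise by less than 2-fold, or to fall without FDR below 0.05. WT cells raised 1157 listed genes 4-fold or more with FDR below 0.05 (44.7%), and 62 of all listed genes were lost rises (2.4%). They numbered 35 where HuRKO cells had to stay under 1.5-fold and 24 where WT cells had to rise 8-fold. The chemokine gene CCL1 (chr17:34360328-34363231, minus strand, GRCh38, GENCODE 29), whose product attracts T cells, was at 8.10 in resting and 1379 in activated WT cells, but at 3.46 and 6.78 in HuRKO cells. Only the activated WT group was high, and the HuRKO move of 1.96-fold lay close under the 2-fold limit. The difference was -6.44 (bounded 95% interval -8.65 to -4.23), and it was not called with the larger of the 2 variance limits that the table allows. NFATC1, the NFAT family member that T cells induce on activation, rose 8.36-fold in WT cells, from 779 to 6512, whereas the HuRKO levels were 869 and 1269.6. Its difference was -2.52 (interval -2.94 to -2.09), from resting levels that the authors' deposited table did not call apart (FDR 0.53). ITPR1, the calcium channel of the endoplasmic reticulum, followed the same pattern, 1126 to 4851 in WT cells and 879 to 1311 in HuRKO cells (difference -1.53). These are the 2 listed members of 19 genes fixed for NFAT and calcineurin, and both responses were lower.

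In TRIB3 and NFKBID the HuRKO levels barely moved. TRIB3, a stress-induced pseudokinase, was at 1133 and 1141 in HuRKO cells while WT cells went from 1079 to 6022 (difference -2.47, interval -2.91 to -2.04). NFKBID, a nuclear regulator of NF-kB, was at 184 and 186 in HuRKO cells and at 166 and 1373 in WT cells (difference -3.03). For CD27, a costimulatory receptor of T cells, the 2 resting levels were 109.7 in WT and 52.3 in HuRKO cells, and the activated levels 1264 and 101 (difference -2.58), a HuRKO move of 1.93-fold, close under the 2-fold limit. Activated WT cells stood alone above the other 3 groups for each of these genes. JUN, a subunit of AP-1, was different in form: WT cells rose from 85.5 to 547, while HuRKO cells were already at 405 at rest and at 600.2 after activation. The activated levels of JUN were not called apart (FDR 0.48 in the authors' deposited table), so its difference of -2.11 is nearly all a gap at rest. NTN1, which encodes the guidance cue netrin, likewise started high in HuRKO cells (59.8, against 3.03 in WT cells) and ended at 32.3 against 43.5, activated levels not called apart in the authors' deposited table (FDR 0.4).

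The other lost rises that the naming rule takes are PTGIR, the prostacyclin receptor, CPA5, SYNM, TTLL9, TLR7, a sensor of single-stranded RNA, and FRY. TLR7 went from 7.19 to 90.1 in WT cells and from 13.6 to 10.2 in HuRKO cells, and PTGIR from 6.80 to 605 and from 5.08 to 9.88, a HuRKO move of 1.95-fold. Both differences, -4.06 and -5.51, had wide intervals of -5.49 to -2.63 and -7.52 to -3.51, and with that larger limit neither these nor CPA5 were called. Lost rises in the gene lists also included the kinase PLK3, which restrains the cell cycle, the growth factor VEGFA, the BH3-only gene BIK and the collagen chain COL1A1. PLK3 went from 312 to 1648 in WT and from 273 to 445 in HuRKO cells, and BIK from 297 to 1949 and from 344 to 554. Over the 62 lost rises the median response was 2.73 on the log2 scale in WT cells and 0.56 in HuRKO cells.

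**Figure D1:**
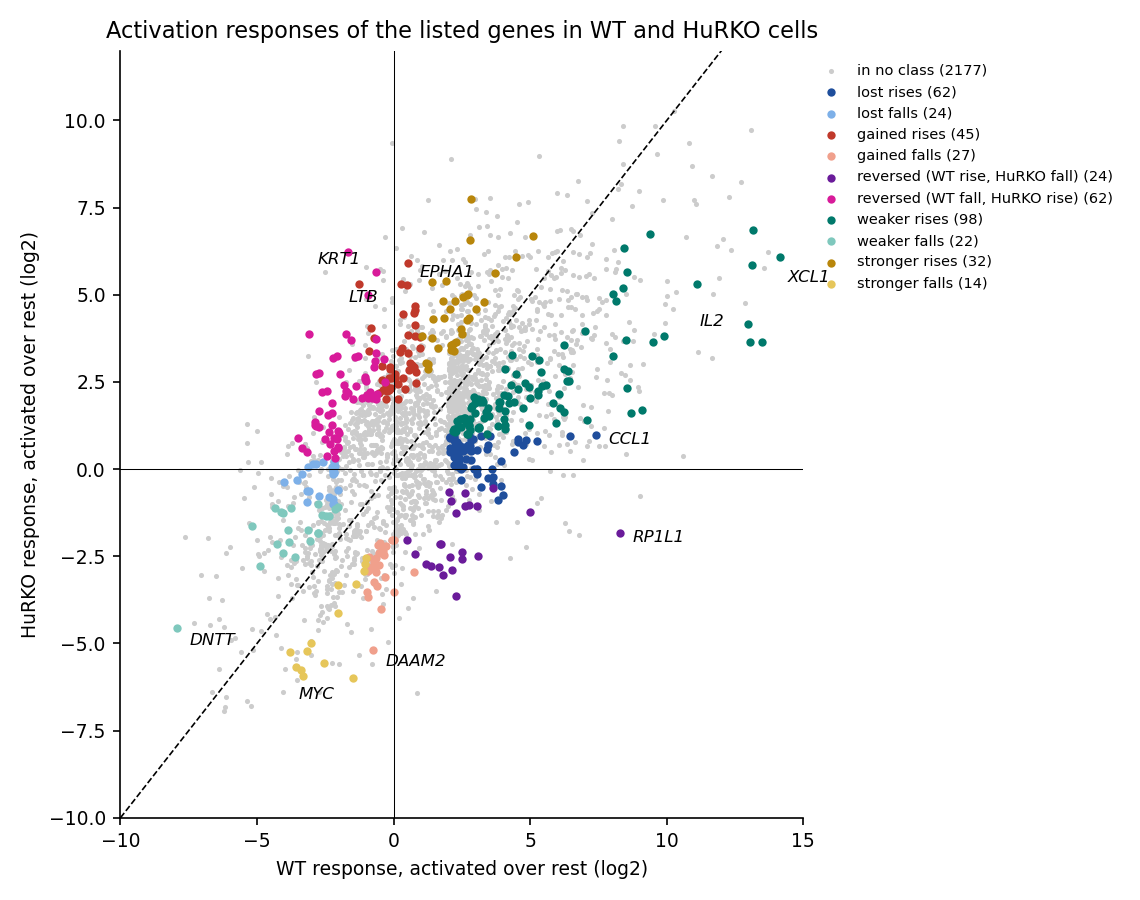
Each point is a listed gene, with its WT response on the horizontal axis and its HuRKO response on the vertical axis, both as log2 of activated over rest, and colours mark the response classes with their numbers of genes. On the dashed line both responses are equal; lost responses lie along the horizontal axis line, gained ones along the vertical one, and reversed ones at the upper left (62) and lower right (24).

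A reversal needed no further test, since both responses had FDR below 0.05 in opposite directions, 1 of them by at least 4-fold. In 24 genes (0.928%) a WT rise became a HuRKO fall. There were 55 where only 2-fold was required of the larger response and 7 where 8-fold was. Both responses reached 2-fold in 18 of the 24. TNFRSF4 (chr1:1211326-1214138, minus strand), which encodes the costimulatory receptor OX40, rose from 425 to 1488 in WT cells and fell from 1407 to 171 in HuRKO cells, so the group that was higher at rest was lower after activation. The difference was -4.85 (interval -5.39 to -4.31). NR4A1, an orphan nuclear receptor induced early in T-cell receptor signalling, started level, at 203 and 197, and ended at 1683 in WT and 94.8 in HuRKO cells (difference -4.11, interval -4.71 to -3.51). KCNK5, a potassium channel that T cells upregulate on activation, also started level (798 and 757) and ended at 4859 and 471, a difference of -3.29. IFIT1, an interferon-induced protein that binds viral RNA, went from 76.6 to 438 in WT cells and from 37.2 to 6.30 in HuRKO cells (difference -5.08). It was the 1 gene of the interferon list in this class, and the letters of its response element are printed above.

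RP1L1 had the largest difference of this class by the naming rule, -10.14 (interval -12.47 to -7.82), from levels of 1.03 and 325 in WT cells and 6.59 and 1.84 in HuRKO cells. Its resting WT level sits at the floor. GZMH, a granule protease of cytotoxic cells, rose from 5.84 to 49.6 and fell from 27.2 to 4.83, and MAP2K6, a kinase that activates p38, rose from 145 to 829 and fell from 173 to 33.5. ADAMTS3, SERPINB2 and RHOV complete the 8 genes of the naming rule, with differences of -6.23, -5.91 and -5.04. TNFRSF18, which encodes the OX40 relative GITR, was among 3 genes of the class whose difference was not called (interval -7.54 to -1.64). Its levels, 3.78, 15.9, 9.03 and 1.58 in the order WT_rest, WT_act, HuRKO_rest and HuRKO_act, were low. At rest, 14 of the 24 genes were already higher in HuRKO cells and 1 was lower.

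The opposite reversal, a WT fall turned into a HuRKO rise, covered 62 genes (2.4%), of which 10 differences were not called. Both responses reached 2-fold in only 34 of the 62. The count was 40 at FDR below 0.01, 125 where only 2-fold was required of the larger response and 17 where 8-fold was. THEMIS, a signalling protein needed for T-cell development, fell from 1459 to 161 in WT cells and rose from 1995 to 2829.9 in HuRKO cells. The HuRKO rise was small, 1.42-fold, and the difference of 3.68 (interval 3.29 to 4.07) came mostly from the WT fall. The adaptors GRAP2 and SH2D1A and the integrin chain ITGAL, all parts of T-cell signalling and adhesion, had the same form. GRAP2 went from 3475 to 641 in WT and from 1323 to 1717 in HuRKO cells, SH2D1A from 1983 to 480.2 and from 1919.7 to 2958, and ITGAL from 3798 to 753 and from 3184 to 5202. Their differences of 2.81, 2.67 and 3.04 had intervals of 2.47 to 3.16, 2.28 to 3.06 and 2.71 to 3.37. ATP2B4, a calcium pump of the plasma membrane, was alike, with levels of 7067 and 1586 in WT cells against 3919.5 and 4885 in HuRKO cells.

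In other members of this class the HuRKO rise was the larger move. The WT fall could be under 2-fold, as for KRT1 (1.57-fold) and FAM30A (1.89-fold). CCR4, the receptor for chemokines CCL17 and CCL22, fell from 159 to 102 in WT cells and rose 13.3-fold, from 40.3 to 536, in HuRKO cells (difference 4.37). KRT1, a keratin of differentiated skin, went from 67.6 to 43.0 in WT and from 38.5 to 1927 in HuRKO cells (difference 6.30, interval 5.63 to 6.96), and the basement membrane gene NID2 from 146 to 31.2 and from 174 to 1569. The long noncoding RNA FAM30A fell from 686 to 363 and rose from 125 to 3981 (difference 5.92, interval 5.49 to 6.35). UMODL1 and PLXNA4 had differences of 5.49 and 5.24. KRT2, DAB1 and C21orf62-AS1 are named by the rule too, but none of these 3 differences was called, and KRT2 and C21orf62-AS1 had a group below the floor. KRT2 fell at least 5.53-fold in WT cells, and C21orf62-AS1 rose at least 9.88-fold in HuRKO cells. The antisense gene C21orf62-AS1 is uncertain besides, since the strand setting of the counting is not given in the sources used here. The class includes several near-identical GOLGA8 copies, whose separate values are uncertain as well.

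**Figure D2:**
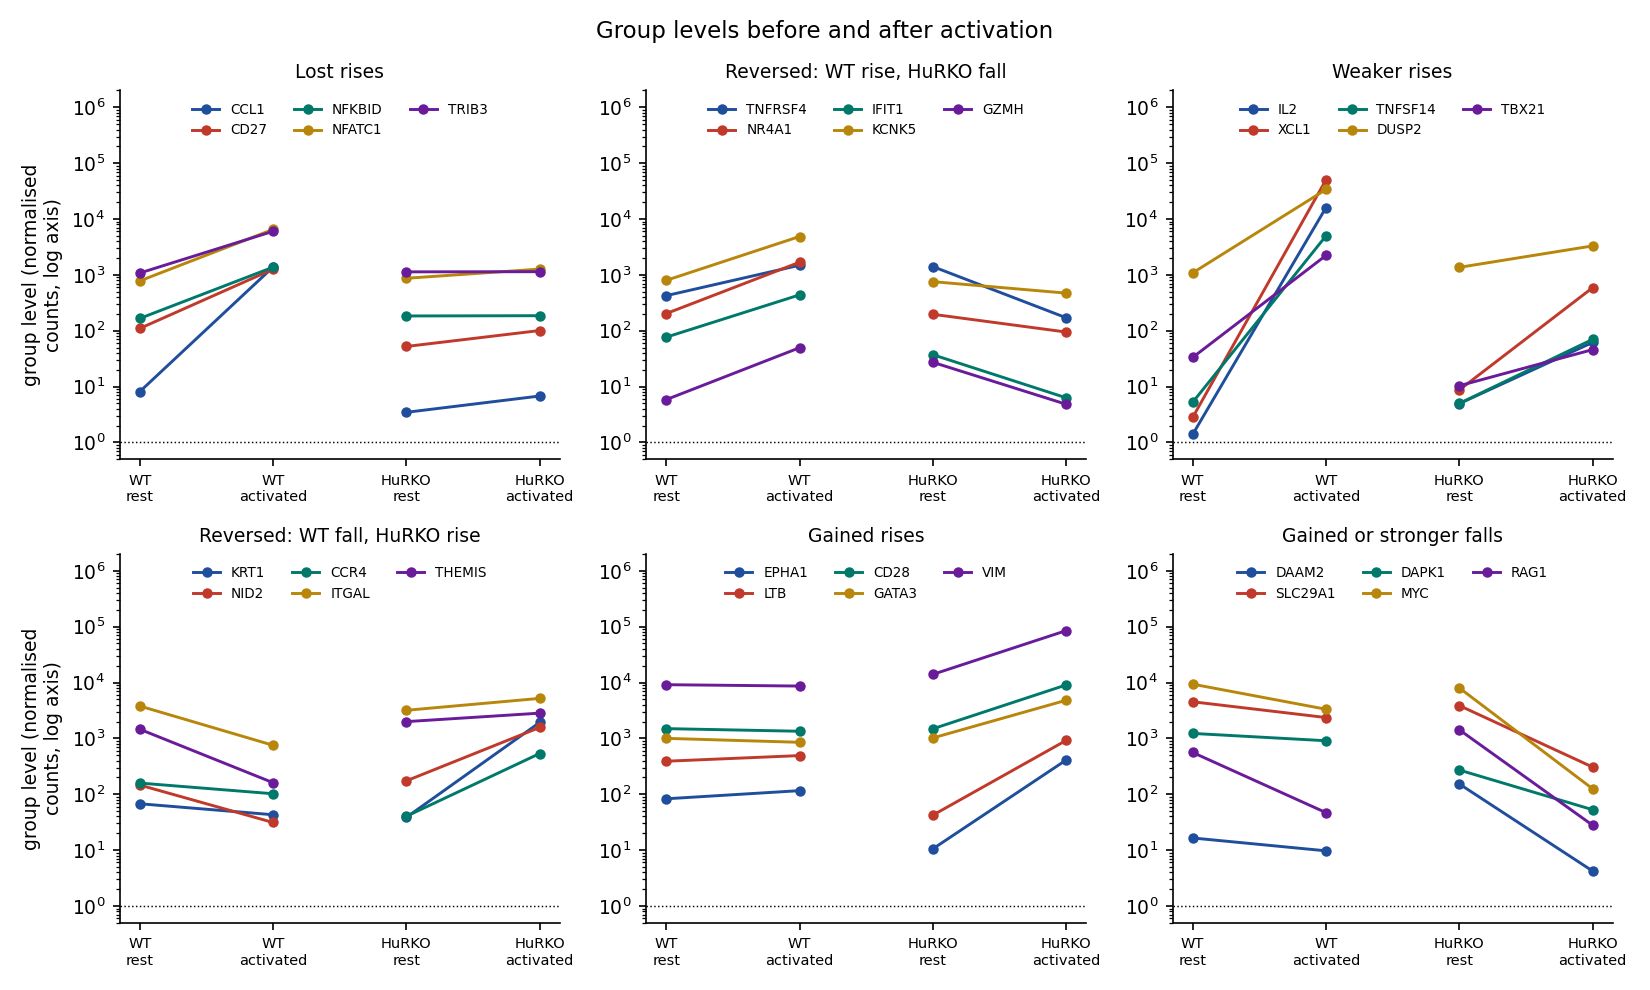
Group levels in normalised counts (log axis, dotted line at the floor of 1) for 5 genes of each kind, from the 12 libraries, with each line joining rest and activated within a genotype; the values are rebuilt group levels, so no error bars can be drawn. In the upper panels the WT lines climb while the HuRKO lines stay flat, fall or climb less, as for CCL1, which ended at 1379 in WT and 6.78 in HuRKO cells; in the first 2 lower panels the HuRKO lines climb, and in the last they fall further.

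A weaker rise was a rise called in both genotypes, at least 2-fold in HuRKO cells and 4-fold in WT cells, with a called difference. The class held 98 genes (3.79%), and 60 with the larger variance limit. IL2 (chr4:122451470-122456725, minus strand), the T-cell growth factor, went from 1.39 to 16006 in WT cells and from 4.96 to 61.8 in HuRKO cells. IL2 therefore responded in both, 11508-fold and 12.5-fold, and the difference of -9.85 had a bounded interval of -11.99 to -7.71. Its resting WT level lay close to the floor, and the resting levels were not called apart in the authors' deposited table (FDR 0.16). XCL1 and XCL2, lymphotactins that attract dendritic cells, reached 50373 and 37914 in WT cells against 590.0 and 444 in HuRKO cells. The pair are almost the same in sequence, which leaves the split between them uncertain. CD200, an inhibitory surface ligand, and the proteoglycan SDC4 rose at least 5854-fold and at least 5668-fold in WT cells from levels below the floor, and 12.4-fold and 18.0-fold in HuRKO cells. CHST1, EDARADD and GBP2, an interferon-induced GTPase, complete the 8 genes of the naming rule. The resting WT level of GBP2 was 1.00, at the floor, and its activated levels were 9241 in WT and 885 in HuRKO cells. CD200, SDC4 and GBP2 lost their calls with the larger variance limit.

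Other weaker rises in the gene lists cover surface, signalling and survival genes. TNFSF14, a ligand of the TNF family, was at 5.22 and 4993 in WT cells and at 4.99 and 70.1 in HuRKO cells (difference -6.09). TBX21, the T-box factor that directs type 1 helper cells, went from 33.2 to 2230.4 and from 10.4 to 45.9 (difference -3.92), and the inhibitory receptor BTLA from 5.88 to 2139 and from 4.42 to 57.4. DUSP2, a phosphatase of MAP kinases, climbed from 1087 to 33778 in WT cells and from 1365 to 3302 in HuRKO cells (difference -3.68, interval -4.13 to -3.23). The cytokine receptor chains IL21R, IL2RB and IL4R had differences of -3.00, -2.60 and -1.21. IER3, CFLAR and BIRC3, which protect cells from death, had differences of -3.02, -1.49 and -1.39. CFLAR, an inhibitor of caspase-8, rose 6.79-fold in WT and 2.42-fold in HuRKO cells. BTG2 and ZC3H12A, both linked to mRNA decay, differed by -2.60 and -1.08, and HLA-E, a ligand of natural killer cell receptors, by -1.73.

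Genes that were silent before activation in both genotypes need another reading, and they were set apart after the data were seen. Both resting levels were below 1 in 152 listed genes, and 0 of their differences were called by the bounded test (40 lower and 6 higher by an unadjusted bounded p below 0.05). With no resting signal to subtract, the activated groups can be compared instead. By FDR below 0.05 in the authors' deposited table, 79 of these genes were lower in activated HuRKO cells, 33 higher and 40 not called, against 916 lower (35.4%) and 1092 higher (42.2%) among all listed genes. IL3, a haematopoietic growth factor, reached 4504 in WT and 19.6 in HuRKO cells, which is at least 4504-fold and at least 19.6-fold over the floor. IFNG reached 79.6 and 1.53, CCL20 391 and 5.35, CCL3 1203 and 62.8, and CCL4 1615 and 156. The activated WT group was the higher for these 5 cytokine genes. Higher in activated HuRKO cells were the potassium channel gene KCNJ13, below the floor in WT and at 229 in HuRKO cells, and the homeobox gene CUX2, at 11.8 and 70.1. In the authors' deposited table the FDR was 1.1e-06 for CUX2. For KCNJ13 it was only 0.03 despite a gap of 10.33 on the log2 scale. How evenly the libraries share the KCNJ13 level is not known here. With a floor of 3 normalised counts the lower and higher genes numbered 166 and 108. CD44, an adhesion receptor and activation marker, reached 128 in WT and 173 in HuRKO cells, which the authors' deposited table did not call apart (FDR 0.56). CSF2 missed this group by a resting HuRKO level of 1.01, and its activated levels were 1426 and 27.6 with a difference not called (interval -11.31 to -4.86).

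A response was counted as gained where HuRKO cells moved 4-fold or more and WT cells moved by less than 2-fold in that direction. A WT move the other way was allowed without FDR below 0.05, and 1 gained rise had such a move of 2-fold or more. Gained rises numbered 45 (1.74%), and 20 with an 8-fold limit. HuRKO cells raised 1004 listed genes 4-fold or more with FDR below 0.05 (38.8%). CD28 (chr2:203706475-203738912, plus strand), the principal costimulatory receptor of T cells, was at 1495 and 1342 in WT cells, but went from 1484 to 9052 in HuRKO cells (difference 2.77, interval 2.37 to 3.15). GATA3, the master regulator of type 2 helper cells, had the same shape, 1001 and 851 against 1018 and 4812, and so had VIM, the intermediate filament vimentin, with 9144 and 8646 against 13997 and 84918. PTPRC, the phosphatase CD45, went from 4756 to 6316 in WT cells and from 5353 to 26319.8 in HuRKO cells. In these 4 genes the activated HuRKO group stood above the other 3 groups. LTB, which encodes lymphotoxin beta, and TNFSF4, the ligand of OX40, instead began low in HuRKO cells, at 42.2 and 48.2 against 389.9 and 304, and ended at 919.6 and 355 against 492 and 276. Their differences were 4.11 and 3.02. The activated levels of TNFSF4 were not called apart in the authors' deposited table (FDR 0.16).

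The T-box gene EOMES, a regulator of cytotoxic and memory cells, went from 569.5 to 4128 in HuRKO cells and from 102 to 151 in WT cells, with a difference of 2.29 (interval 1.38 to 3.20). It is a relative of TBX21, whose rise was weaker. TOX2, linked to T-cell exhaustion, went from 142 to 1953 and from 27.4 to 53.6 (difference 2.82). By the naming rule the gained rises are C14orf105, LINC01108, EPHA1, CRMP1, LTB, PACSIN1, GCNT1 and GAL3ST4. EPHA1, an ephrin receptor, was at 82.9 and 116 in WT cells and at 10.5 and 409.9 in HuRKO cells, GCNT1, an enzyme that builds branched sugar chains on surface proteins, at 97.2 and 169 against 94.4 and 2238, and C14orf105 at 5.55 and 8.0 against 3.75 and 224. GCNT1, C14orf105 and CRMP1 lost their calls with the larger variance limit, as did UMODL1, GPR84, ADCY4, PLD6 and TERT in other classes.

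In 32 genes (1.24%) a rise was called in both genotypes and was larger in HuRKO cells. TRAC, the constant region of the T-cell receptor alpha chain, went from 3510.1 to 23285 in WT cells and from 552 to 17916 in HuRKO cells. Its difference of 2.29 (interval 2.01 to 2.57) was made by the low resting HuRKO level more than by the activated one. SPRY1, SPRY4 and DUSP6, feedback inhibitors of the MAP kinase pathway that PMA feeds, differed by 1.46, 1.58 and 2.51. DUSP6 went from 41.8 to 177 in WT and from 33.4 to 804 in HuRKO cells, the reverse order of its relative DUSP2. BMF, a BH3-only protein that promotes cell death, went from 76.2 to 174 and from 120.1 to 986 (difference 1.85), and TP53INP1, a p53 target linked to cell death, from 26.3 to 125 and from 58.9 to 1666 (difference 2.57). STAT5A, which signals for the IL2 receptor, rose 5.70-fold in WT and 14.8-fold in HuRKO cells, and LGALS1, a secreted lectin, 13.2-fold and 49.9-fold. GPR84, HS3ST3B1, PRUNE2, SLFN5, LYL1, ADCY4, TP53INP1 and KIAA1683 are the 8 of the naming rule. LYL1, a basic helix-loop-helix factor known from T-cell leukaemia, ended at 20.0 in WT and 629.9 in HuRKO cells.

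Falls of 4-fold or more numbered 372 in WT cells (14.4%) and 278 in HuRKO cells (10.7%). Lost falls numbered 24 (0.928%) and weaker falls 22 (0.85%), or 7 and 14 with an 8-fold limit. With an absent response under 1.5-fold, 15 falls were lost. BCL11B, a transcription factor that fixes T-cell identity, fell from 2883 to 556 in WT cells and had levels of 2823 and 1624 in HuRKO cells (difference 1.58). TCF7, which encodes the thymic factor TCF1, fell in both, from 12209.8 to 412 and from 15608 to 2268, with a difference of 2.11 (interval 1.67 to 2.55). IL7R, the receptor of the survival cytokine IL7, and DNTT, the terminal transferase of immature lymphocytes, fell less in HuRKO cells from lower resting levels (122 against 481 and 282 against 1142). The activated IL7R levels, 32.9 and 36.6, were not called apart in the authors' deposited table (FDR 0.64). CXCR4, a homing receptor, ended at 743 in WT and 2708 in HuRKO cells after like resting levels of 5063 and 5461. RASGRP2, an activator of the GTPase RAP1, and ARPP21 kept activated levels of 414 and 849 in HuRKO cells against 87.6 and 32.8 in WT cells. Lost falls by the naming rule are TESMIN, CLEC11A, PTGDR2, FGR, ITPKA, LINC00528, ABCG1 and FGD5, with differences between 2.31 and 3.21. CLEC11A was already low in resting HuRKO cells, at 55.45 against 1369 in WT cells, and ended at 44.7 against 119. TESMIN, PTGDR2, FGR and ABCG1 also began lower in HuRKO cells but ended higher there. Weaker falls by the same rule also include BAHCC1, PTPN3 and IGLL1, a component of the pre-B-cell receptor.

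Gained falls numbered 27 (1.04%) and stronger falls 14 (0.541%), or 14 and 26 where an absent response was one under 1.5-fold. With an 8-fold limit, 8 falls were gained. MYC, the growth regulator, had resting levels of 9353 in WT and 8009.5 in HuRKO cells, not called apart in the authors' deposited table (FDR 0.72), and fell to 3323 and 125. That is 2.81-fold against 64.0-fold, a difference of -4.51 (interval -5.48 to -3.53). MYCN, its relative, went up in both, 41.8-fold in WT and 6.95-fold in HuRKO cells. TERT, the catalytic subunit of telomerase, ended at 62.7 and 15.4 from 509 and 493. RAG1, the recombinase of antigen receptor genes, and HES4, a target of NOTCH signalling, fell further in HuRKO cells from higher resting levels, RAG1 from 1425 to 27.9 against 560.0 to 46.9 and HES4 from 1961 to 52.7 against 1203 to 134. LINC00977, EFEMP1, CXorf49 and CXorf49B complete the 8 named genes; the last pair are near-identical copies, and their separate values are uncertain. Among gained falls, SLC29A1, a nucleoside transporter, was at 4523 and 2362 in WT cells and fell from 3867 to 306 in HuRKO cells (difference -2.72, interval -3.08 to -2.36). The kinase DAPK1, which promotes cell death, began lower in HuRKO cells and fell there from 271 to 52.8, against 1227 to 908 in WT cells. DAAM2 and RIMS4 began higher in HuRKO cells, at 153 and 159.9 against 16.5 and 6.24, and ended at 4.22 and 20.5 against 9.70 and 10.4. CAMKV, HSD11B2, GAREM2, PLD6 and the antisense gene VPS9D1-AS1, uncertain for its strand, had differences between -3.53 and -2.55.

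The 4 deposited comparisons show where the gap between the genotypes opened. They share the libraries that define the classes, so the counts describe the classes and support nothing further. At rest 648 of all listed genes were higher in HuRKO cells (25.0%) and 399 lower (15.4%). Of the 62 lost rises, 29 were not called apart at rest and 56 were lower after activation. Of the 98 weaker rises, these numbers were 55 and 93. Median gaps of lost rises were 0.18 at rest and -1.97 after activation. For gained rises the medians were -0.07 and 2.59. Both medians were near 0 at rest, although 25 lost rises were higher and 8 lower in HuRKO cells before stimulation, and 9 gained rises higher and 12 lower. WT rises that became HuRKO falls had the widest median gap at rest, 1.70, and one of -3.06 after activation. As counted above, 14 of these 24 were higher in HuRKO cells at rest, and the others were not. Other classes were uneven at rest too. WT falls that became HuRKO rises had 28 genes lower and 8 higher in resting HuRKO cells, of 62. Lost falls had 12 lower and 1 higher of 24, and weaker falls 10 lower and 4 higher of 22.

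**Figure D3:**
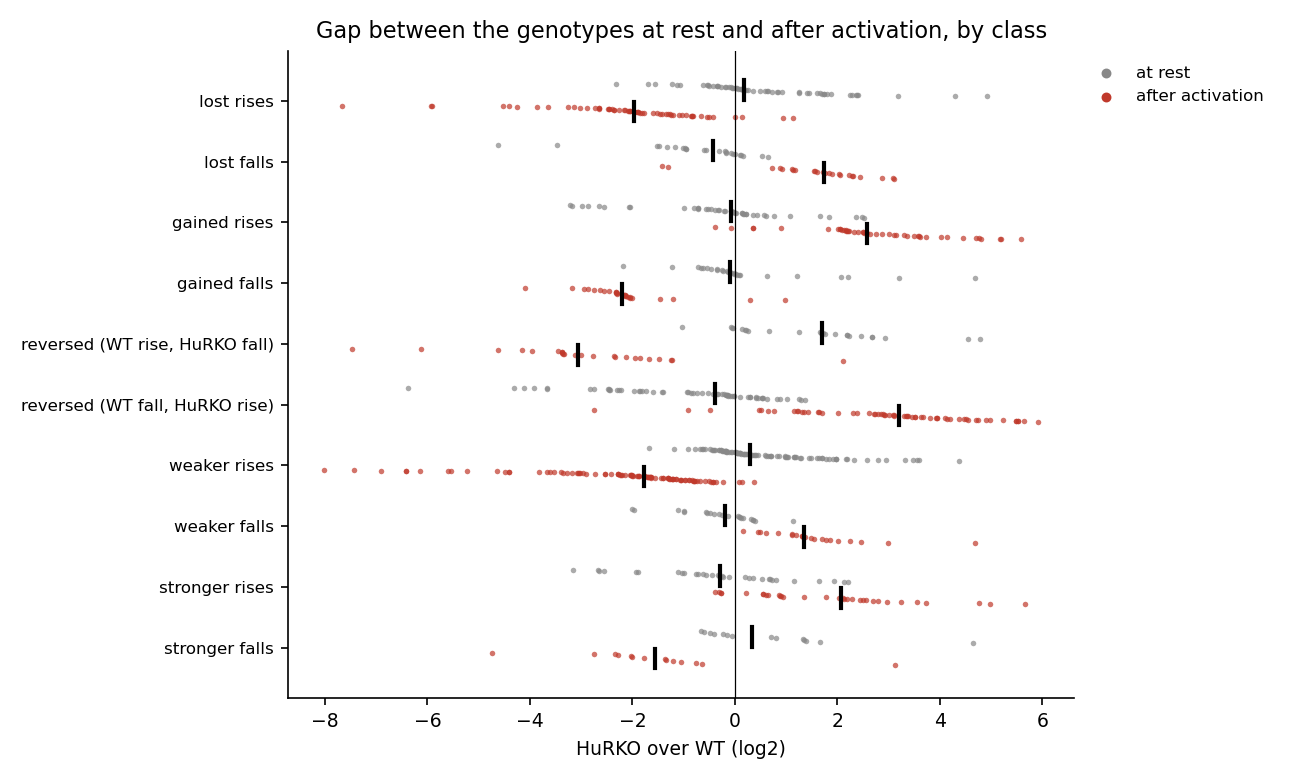
Log2 of the HuRKO over the WT level, at rest (grey) and after activation (red), for every gene of each response class, with a black bar at the median. For lost and weaker rises the grey points centre near 0 and the red points lie to the left (median -1.97 for lost rises), and for gained rises the red points lie to the right (median 2.59).

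The gene lists differed in how many called responses were lower and how many higher in HuRKO cells, and several held as many of one as of the other. Each list is described by its counts and median, beside the 9.74% higher, 10.4% lower and median of -0.07 of the whole table. Those shares include the 963 genes with a mean below 20, of which 5 were called. Of the other 1624 genes, 248 were higher and 269 lower. The lists were not matched to the table for level. Of 38 listed interferon-stimulated genes (70 fixed), 15 responses were lower, 0 higher and 23 not called, with a median difference of -1.26. By an unadjusted bounded p below 0.05 the counts were 2 higher and 29 lower. WT cells raised 32 of them 4-fold or more and HuRKO cells 16. OAS3, an enzyme that makes an antiviral second messenger, rose from 1409 to 8154 in WT cells and was at 645 and 1008 in HuRKO cells (difference -1.89, interval -2.18 to -1.59). IFIT3, IRF7 and GBP5 rose in both, with differences of -2.35, -2.43 and -2.66, and the ubiquitin-like ISG15, in no class, differed by -1.78 with a WT rise of only 2.45-fold. Smaller called differences were those of the RNA sensor DDX58 (-1.04), STAT2 (-0.95) and APOL6 (-1.08), all weaker rises, and IFI35 and PARP9 were lost rises.

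Lists of early response and survival genes leaned the same way. Of 12 listed NF-kB pathway and feedback genes (27 fixed), 7 responses were lower and 0 higher, with a median of -1.33 (unadjusted, 1 higher and 10 lower). The subunit genes REL, NFKB2 and RELB rose 6.75-fold, 8.87-fold and 20.3-fold in WT cells and 2.37-fold, 3.79-fold and 9.58-fold in HuRKO cells. The inhibitor gene NFKBIE was a lost rise (-1.26), and ICAM1, an adhesion ligand of T cells, a weaker one (-1.83). The immediate-early list (30 fixed, 17 listed) had 6 lower, 0 higher and a median of -2.11 (unadjusted, 1 higher and 12 lower). EGR1 still reached 7109.9 in HuRKO cells against 10697 in WT cells (difference -2.08, interval -2.87 to -1.28). FOS had levels of 75.0 and 74.1 after activation and a difference of -0.83 (interval -2.09 to 0.44), not called. Of 4 listed anti-apoptotic genes (16 fixed), 3 responses were lower and 0 higher. The pro-apoptotic list (34 fixed, 10 listed) was mixed, with 3 higher (BMF, TP53INP1 and BID) and 2 lower (BIK and DAPK1). BID itself fell in both genotypes, 12.3-fold in WT and 5.77-fold in HuRKO cells.

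For cytokines the direction was not uniform. All 11 listed chemokines (23 fixed) had a negative point difference, but 3 were called (XCL1, XCL2 and CCL1), and the median was -3.29. Of 19 listed cytokines (35 fixed), 3 responses were lower (IL2, TNFSF14 and CD70) and 3 higher (LTB, TNFSF4 and IL16), with a median of -2.18. For TNF and LTA the level and the response have to be read apart. TNF was at 93.7 in resting and 1587 in activated WT cells and at 6.40 and 65.7 in HuRKO cells, so it was low in both HuRKO groups, yet the difference of responses was -0.72 (interval -1.60 to 0.15), not called. For LTA the levels were 154, 1492, 11.4 and 179 in the same order and the difference 0.69 (interval 0.04 to 1.35). Of 23 listed surface markers and costimulatory receptors (42 fixed), 5 responses were lower, those of BTLA, CD27, CD200, TNFRSF4 and TNFRSF25, and 2 higher, CD28 and CD38.

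Lists of T-cell signalling, identity and homing leaned to higher responses. For T-cell receptor signalling (47 fixed, 13 listed) these were 5 higher and 0 lower, with a median of 1.49 (unadjusted, 10 higher and 2 lower). For quiescence, homing and migration (37 fixed, 21 listed) they were 10 and 2, with a median of 1.43. A higher response here joins 2 kinds of gene: rises that were gained, such as VIM, and falls that were lost or weaker, such as CXCR4, SELPLG and IL7R. Of 27 listed thymocyte and T-lineage genes (43 fixed), 11 responses were higher and 4 lower. The median of this list was only 0.16, with 17 point differences above 0 and 10 below. WT cells lowered 16 of them 4-fold or more and HuRKO cells 11. Lower responses in this list include the weaker rises of ID2, an inhibitor of helix-loop-helix factors (-2.84), and ZBTB7B, which directs helper T-cell fate (-2.96), and the lost fall of AQP3, a water and glycerol channel, is a higher one (2.09). The cytotoxic list (18 fixed, 13 listed) had 1 called response, that of GZMH, and glycolysis (22 fixed, 3 listed) had 0 in either direction (unadjusted, 2 higher and 1 lower).

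The remaining lists can be given by their counts. Higher and lower responses numbered 3 and 3 of 18 listed cytokine and chemokine receptors, 3 and 1 of 9 MAP kinase phosphatases and SPRY inhibitors, 3 and 4 of 13 helper and effector regulators, and 3 and 0 of 5 genes linked to anergy and exhaustion. They numbered 0 and 3 of 5 cell-cycle genes (CCND2, CDKN1A and PLK3), 1 and 2 of 5 stress genes, 1 and 1 of 8 sterol and lipid genes, 0 and 2 of 8 genes of mRNA decay, 0 and 1 of 11 antigen presentation genes, 0 and 2 of 15 matrix genes, and 3 and 3 of 10 ion channels and calcium-binding proteins. TIMP1, an inhibitor of matrix proteases, was a weaker rise with a difference of -3.22. Among RNAs without poly(A) tails, 59 small RNA genes and 24 histone genes are in the table, and 0 differences were called (unadjusted, 0 higher in both, 6 and 3 lower).

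**Figure D4:**
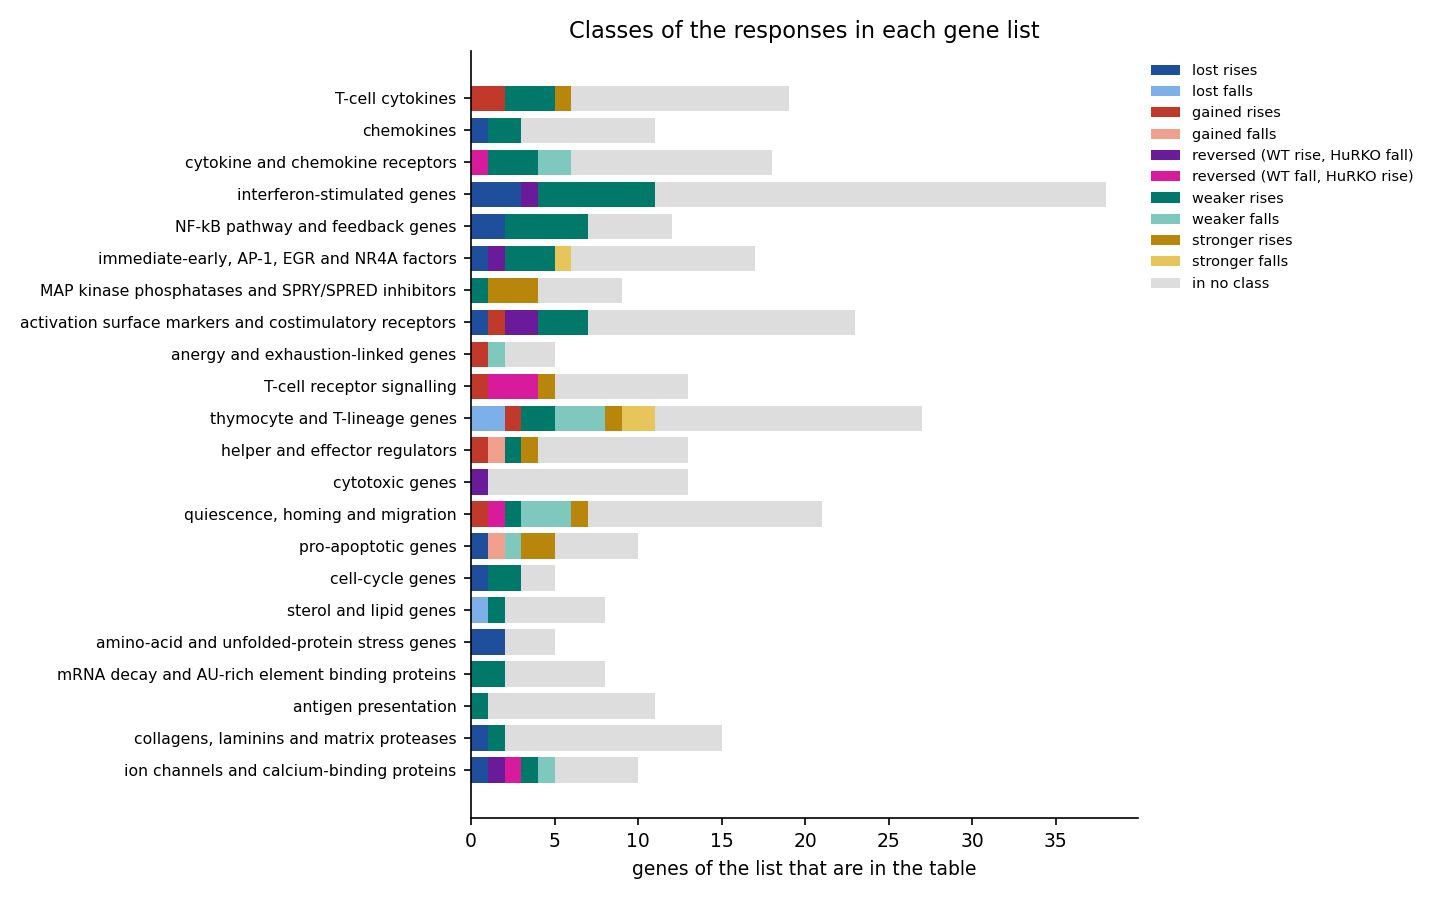
Listed genes of each gene list with 5 or more of them in the table, by response class, as horizontal bars in numbers of genes, with genes in no class in grey. Blue and green segments, lost and weaker rises, fill most of the coloured part for interferon-stimulated genes (3 lost and 7 weaker) and NF-kB genes (2 lost and 5 weaker), whereas T-cell receptor signalling holds gained, reversed and stronger rises.

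Not every strong response changed. Of 852 genes that moved 4-fold or more in the same direction in both genotypes (692 rises and 160 falls), 85 (3.29% of all listed) had a bounded 95% interval of the difference that lay wholly within 2-fold, 67 rises and 18 falls, and 19 had one within 1.5-fold. This set was defined after the data were seen. CD69, an early activation marker, rose 152-fold in WT and 163-fold in HuRKO cells, a difference of 0.10 (interval -0.40 to 0.60), although its level was lower in both HuRKO groups (53.3 and 8686 against 115 and 17426). TNFAIP3, an inhibitor of NF-kB, went from 918 to 8239 and from 821 to 6766 (difference -0.12, interval -0.43 to 0.18), beside other NF-kB genes that responded less. TNFSF10, the death ligand TRAIL, rose 18.6-fold in both genotypes, and the interferon-induced GBP3 4.72-fold and 5.50-fold, with intervals of -0.56 to 0.55 and -0.21 to 0.65. HMGCS1, an enzyme of sterol synthesis, the kinase JAK3 and the ubiquitin ligase CBLB differed by -0.18, 0.12 and 0.07. Among falls, NOTCH3 went down 13.3-fold and 12.9-fold (interval -0.29 to 0.40), and the CD1 family gene CD1E 20.1-fold and 19.0-fold (interval -0.27 to 0.44).

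Most responses fall between these poles. Of the 1157 WT rises of 4-fold or more, 62 were lost, 98 weaker, 16 reversed, 21 stronger and 67 kept within 2-fold. That leaves 893 that were neither placed in a class nor shown to be alike. Genes silent at rest are among them, and for those the activated groups were compared above. Of the 372 WT falls, 24 were lost, 31 reversed, 22 weaker, 9 stronger and 18 kept, and 268 were neither. EGR3 and NR4A2 are examples of the undecided kind, early regulators induced by calcium signals: their activated levels were 1472 and 629 in WT cells against 117 and 33.3 in HuRKO cells, but the bounded intervals of the difference, -6.72 to -2.06 and -9.64 to -3.65, were too wide for a call. A further 125 genes had a called difference without meeting the fold limits of any class.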

How the data were processed

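Poly(A) RNA was measured in 12 libraries, 3 in each of 4 groups. TopHat and Bowtie2 are named, with the build hg38, per the submitters' processing notes. How reads were counted, with which strand setting, and which test gave the FDR is not stated in these sources. The authors deposited 1 table: per gene a signal value, the mean normalised count over all libraries, then 4 changes taken here as log2, and an FDR (an adjusted p-value) for each. Per the file headers the base of the logs is not stated. Base 2 was inferred, since 30.6% of resting WT levels below the floor then gather in 1 window 10% wide (5.34% for base e, 2.03% for base 10).

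Levels, differences, bounded errors (normal approximation) and classes were computed with Python 3.11.15, pandas 2.3.3, numpy 2.4.6 and SciPy 1.17.1, and figures drawn with matplotlib 3.10.9. An FDR of 0 was held at 1e-300 (11 genes). No count model could be run, because no values per library were used here. The variance of the difference was the smaller of the 2 sums that the deposited comparisons allow, and 60000 is a ceiling for the number of genes tested. The steps were tested on simulated data with normal errors and p-values from a normal test. That simulation could not check whether the normal approximation holds for the deposited FDR. Gene IDs were matched to GENCODE 29 for 2577 of 2587 genes, and 1868 are protein coding. Depth per library is unknown, and no interval for counting error can be given.

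The members, gene lists and tests were chosen with earlier results of these data known. The sets called kept and silent at rest were defined after the data were examined. Genes named were the 8 with the largest differences on floor-held levels in each class, leaving out pseudogenes, clone names, chromosome Y genes and RNAs without poly(A) tails, and the class members of the gene lists. A few items that this rule or the motif search takes are not reported here. Alternatives changed the FDR, the folds, the adjusted p, the floor, the sum of variances, the centring and the minimum mean.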

Additional observations from a re-analysis of the deposited data

Results flagged for a closer look

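The activation response differed between the genotypes, by the bounded test of the difference itself, in 252 genes with a higher and 270 with a lower response in HuRKO cells. CD28 (2.77 on the log2 scale) and KCNK5 (-3.29) are examples of either direction. Responses called in opposite directions made up 24 genes that rose in WT and fell in HuRKO cells, such as TNFRSF4 and NR4A1, and 62 that fell in WT and rose in HuRKO cells, such as CCR4 and THEMIS. The difference itself passed the bounded test for 21 and 52 of them, and was not called for the other 3 and 10. No group had values per library to compare for single samples that stand apart.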

How the results depend on the processing

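With FDR below 0.01, WT falls that became HuRKO rises numbered 40 and WT rises that became HuRKO falls 16. With only 2-fold required of the larger response, WT rises that became falls numbered 55 and WT falls that became rises 125. With 8-fold or more, lost rises numbered 24, lost falls 7, gained rises 20, gained falls 8, WT rises that became falls 7, WT falls that became rises 17 and weaker falls 14. With an absent response held under 1.5-fold, lost rises numbered 35, lost falls 15, gained falls 14 and stronger falls 26. With the larger sum of variances, 210 responses were higher and 203 lower in HuRKO cells. Lost rises then numbered 49, gained rises 31 and weaker rises 60. Centring on the median gave 262 higher and 256 lower responses. Alternatives added after seeing the data gave 19 genes kept within 1.5-fold and, with a floor of 3, 166 genes lower and 108 higher among those silent at rest. Of the 80 genes that the rule takes from the classes, 69 had the same standing with an adjusted p limit of 0.001 and 11 lost their call, and 65 had the same standing with the larger sum of variances. The 15 that lost their call with the larger sum were CCL1, PTGIR, CPA5, TLR7, C14orf105, CRMP1, GCNT1, PLD6, UMODL1, CD200, SDC4, GBP2, GPR84, ADCY4 and TERT. No paired analysis was possible because the table holds no values per library, and leaving out replicates could not be run for the same reason.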
